A study of Mus musculus with 6 samples.

Results

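The mRNA levels of 8 pluripotency genes outside the Klf and Sox families were compared in mouse cells. The conditions were embryonic stem cells (ESCs) and cells treated with retinoic acid (RA), which the study names neuronal cells (NCs). The genes were taken by name, and all 8 of 8 were found among the 23235 rows of the expression table: Pou5f1 (which encodes OCT4), Nanog, Sall4, Tfcp2l1, Tbx3, Prdm14, Zfp42 (which encodes REX1) and Tcl1. All had an FPKM (fragments per kilobase of transcript, scaled to all mapped fragments) of at least 1 in at least 1 condition, as did 13293 genes of the table. Both conditions came from 1 cell line, E14Tg2a, at passages 37 to 40, and no transgene or deletion is named for either. The ESC group was grown in serum medium with leukemia inhibitory factor (LIF), and the NC group was kept for 48 h in 1 µM RA with LIF left out. Each group had 3 RNA samples, each pooled from more than 1 culture plate. The deposited table gives 1 FPKM per gene and condition, estimated from the 3 samples together, so no spread between samples could be computed here, no difference was tested here, and whether neighbours in an order of levels differ is not known. LIF withdrawal and RA were changed together, and their parts cannot be told apart.

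The naive pluripotent state of mouse ESCs is kept by a network of transcription factors that bind many of the same enhancers and sustain one another's transcription. OCT4, with its partner SOX2, and NANOG stand at its core, SALL4 acts with them, and TFCP2L1, TBX3 and PRDM14 tie the core to LIF and other signals or repress genes of later states. Zfp42 is a classical marker of the naive state, and Tcl1 is a target of the network that encodes a coactivator of the kinase AKT rather than a transcription factor. RA acts through nuclear receptors that bind pairs of half-sites in DNA, and it ends pluripotency in culture.

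The bases before the first start site are shown for 3 of the genes, since Pou5f1, Nanog and Zfp42 had the highest levels of the 8 in ESCs and are the genes in which letters for OCT4, SOX or nuclear receptor binding were found. RefSeq promoter sequence (build GRCm38.p6) was matched for 5 of the 8 genes, namely Pou5f1, Nanog, Zfp42, Tcl1 and Tfcp2l1. Capitals mark the letters searched for on either strand, and positions count back from the first RefSeq start. The last 14 bases before that start are left out of the Pou5f1 stretch because they lie within the gene as GENCODE annotates it. The Pou5f1 stretch lies at chr17:35505782-35506017 on the plus strand, with a GC box (GGGCGG) at bases 45 to 40 and a nuclear receptor half-site (AGGTCA) at bases 33 to 28 before the start.
Pou5f1: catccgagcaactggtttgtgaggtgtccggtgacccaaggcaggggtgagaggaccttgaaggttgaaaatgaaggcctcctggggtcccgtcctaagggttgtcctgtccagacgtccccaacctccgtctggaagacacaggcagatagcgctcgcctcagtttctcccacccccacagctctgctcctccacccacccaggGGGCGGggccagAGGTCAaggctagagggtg
The Nanog stretch lies at chr6:122707239-122707488 on the plus strand. Its capitals mark a half-site read on the opposite strand at bases 248 to 243, the octamer core (ATGCAA) read on the opposite strand at bases 74 to 69, and a SOX core (ACAATG) at bases 67 to 62.
Nanog: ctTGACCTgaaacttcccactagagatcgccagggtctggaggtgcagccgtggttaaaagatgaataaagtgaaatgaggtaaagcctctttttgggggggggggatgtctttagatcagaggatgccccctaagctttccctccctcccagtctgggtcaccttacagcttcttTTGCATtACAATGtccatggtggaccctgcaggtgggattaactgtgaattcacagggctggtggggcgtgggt
The Zfp42 stretch lies at chr8:43307010-43307259 on the minus strand and is written in the direction of the gene. All its capitals are letters read on the opposite strand, namely the octamer core at bases 184 to 179, GC boxes at bases 91 to 86 and 79 to 74, and a KLF core (GGGTGTG) at bases 74 to 68 that shares 1 base with the second GC box.
Zfp42: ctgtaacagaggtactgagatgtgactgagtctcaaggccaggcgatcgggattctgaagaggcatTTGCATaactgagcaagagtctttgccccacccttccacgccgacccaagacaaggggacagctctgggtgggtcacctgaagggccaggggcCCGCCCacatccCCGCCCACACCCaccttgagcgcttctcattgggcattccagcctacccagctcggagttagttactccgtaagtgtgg
These letters are short and occur in many promoters. Among 32851 RefSeq windows of 250 bases before a start, 9.45% held the octamer core, 10.7% the SOX core, 14% the half-site, 32.7% the GC box and 6.93% the KLF core. An octamer core followed by 1 base and then the SOX core, the arrangement in Nanog, was in 4 of the 32851 windows (0.0122%), that of Nanog among them. The arrangement was taken from the Nanog sequence itself, so its rarity is a description and not a test. The Tfcp2l1 window held TATAAA at bases 28 to 23 before its start (12.4% of all windows), and the Tcl1 window held GC boxes at bases 64 to 59 and 54 to 49. The SOX core spelled ACAAAG (16.5% of all windows), the STAT site TTCNNNGAA (7.02%) and the half-site extended to CAAGGTCA (1.33%) were in 0 of the 5 windows, which says only that these letters are not there.

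Each of the 8 genes had the lower deposited FPKM in NCs, although Sall4 turned higher with equal sums of FPKM, and they fell into a group of 6 with a large drop and a pair with a small one. Pou5f1, Nanog, Zfp42, Tfcp2l1, Prdm14 and Tcl1 were down-regulated by 13.0-fold to 47.8-fold, while Tbx3 and Sall4 stayed within 2-fold. Of all 13293 genes, 10.6% were at least 2-fold lower in NCs and 12.5% at least 2-fold higher. All 6 down-regulated genes were also at least 8-fold lower, which 1.57% of all genes were. The median log2 ratio of NC to ESC FPKM was -3.88 over the 8 genes and -0.03 over all genes. In a bulk sample, fewer cells that express a gene and less RNA per cell cannot be told apart. The sums of FPKM over the table were 770592 in ESCs and 628679 in NCs. Scaling the conditions to equal sums moved every log2 ratio up by 0.29 and the share of up-regulated genes among all genes past 2-fold from 54% to 70.6%, with the same count of 6 genes of the 8 at least 2-fold lower.

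**Figure D1:**
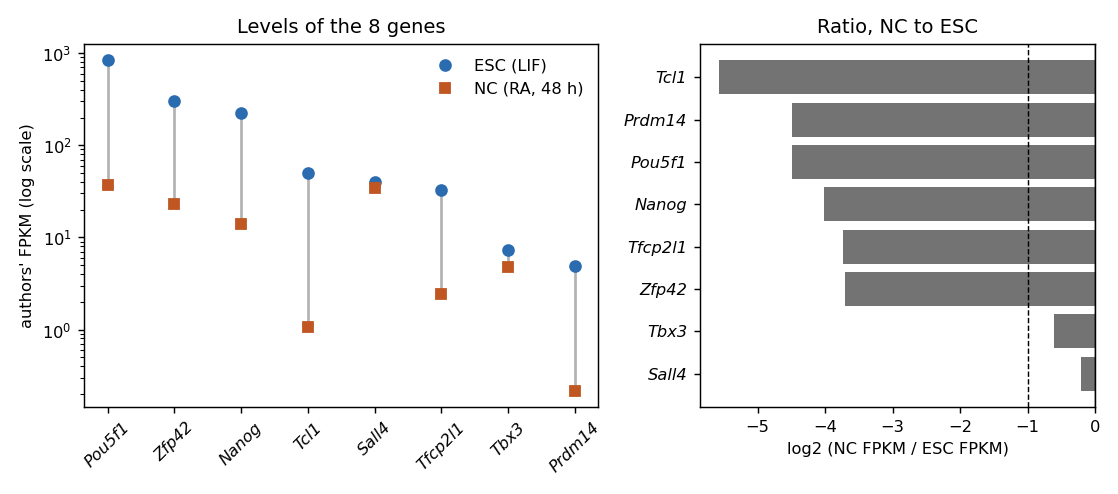
Left, the authors' FPKM of the 8 pluripotency genes on a log axis, with 1 circle per gene for ESCs and 1 square for NCs, joined by a line. Right, bars of the log2 ratio of NC to ESC FPKM, with a dashed line at 2-fold lower: 6 bars pass it, from -3.71 for Zfp42 to -5.58 for Tcl1, and those of Tbx3 (-0.62) and Sall4 (-0.21, or 0.08 with equal sums) do not.

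Pou5f1 (ENSMUSG00000024406, chr17:35506018-35510772, plus strand), the POU factor without which the inner cell mass is not pluripotent, had the highest level of the 8 genes in both conditions. It stood at 832 FPKM in ESCs against 37.1 in NCs, a log2 ratio of -4.49. The 4.46% that was left still ranked 2474 among the 23235 rows, against a rank of 142 in ESCs, so the mRNA was much lower but not absent. Only 73 of the 13293 genes had a lower ratio. The annotated transcript Gm19553 lies over the gene on the opposite strand, and the counting is not stated to have used strand. Of the 50-base words of the longest Pou5f1 transcript, 0.99% also occur in the copy Gm5712, which was listed at 0.143 FPKM in ESCs against 0.130 in NCs.

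Nanog (ENSMUSG00000012396, chr6:122707489-122714633, plus strand) encodes the homeodomain factor that steadies self-renewal. Its level was 225 FPKM in ESCs against 13.9 in NCs, 16.2-fold lower, and 6.17% of the ESC value remained. Pou5f1 was 3.70 times as high as Nanog in ESCs and 2.68 times as high in NCs, so their ratio moved far less than either level. Part of the longest Nanog transcript (4.67% of its 50-base words) is shared with other genes, Nanog-ps1 among them, and how the fragments were divided is not known.

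Sall4 (ENSMUSG00000027547, chr2:168748332-168767943, minus strand), a zinc finger factor that binds OCT4 and NANOG and recruits the NuRD corepressor complex, had almost the same level in both conditions. Its values were 39.9 FPKM in ESCs against 34.5 in NCs, a log2 ratio of -0.21 that turned to 0.08 with equal sums. Of its ESC value 86.3% was present in NCs, and 5062 genes had a lower ratio. With the drop of its neighbours it moved from the fifth of the 8 levels in ESCs to the second in NCs, where it nearly equalled Pou5f1: the ratio of Pou5f1 to Sall4 was 20.8 in ESCs and 1.08 in NCs. An annotated transcript, Gm14261, overlaps Sall4 on the opposite strand.

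Tfcp2l1 (ENSMUSG00000026380, chr1:118627945-118685168, plus strand) encodes a CP2-family factor that acts downstream of LIF and STAT3. Its FPKM was 32.6 in ESCs and 2.44 in NCs, with 7.48% of the ESC value left and a log2 ratio of -3.74. A pseudocount of 1 FPKM gave -3.29. Short annotated genes lie inside or over it on both strands (Gm23497 on the same strand, Gm22094 and Gm28882 on the opposite one).

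Tbx3 (ENSMUSG00000018604, chr5:119670669-119684724, plus strand) encodes a T-box factor of the same LIF-responsive layer that also acts in limb and heart development. It was at 7.37 FPKM in ESCs against 4.81 in NCs, 1.53-fold lower, and 65.3% of its ESC value was kept. The log2 ratio was -0.62 as deposited and -0.32 with equal sums, and 2439 genes, or 18.3% of those compared, had a lower one. It was above Tfcp2l1 in NCs, having been far below it in ESCs, so these factors of 1 layer did not share a ratio. Tbx3os1 is annotated over the gene on the opposite strand.

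Prdm14 (ENSMUSG00000042414, chr1:13113457-13127163, minus strand) encodes a PR-domain factor that holds down fibroblast growth factor signalling and DNA methylation in naive cells and primordial germ cells. It had the lowest level of the 8 genes in both conditions, 4.88 FPKM in ESCs against 0.217 in NCs. The log2 ratio of -4.49 was close to that of Pou5f1, although Pou5f1 was 171 times as high in ESCs and, again, 171 times as high in NCs. At so low a level the size of the drop rests on the scale, and with a pseudocount of 1 FPKM the log2 ratio was -2.27.

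Zfp42 (ENSMUSG00000051176, chr8:43295063-43306980, minus strand), a zinc finger gene that arose from a copy of Yy1, had the second level in ESCs at 299 FPKM. In NCs it was at 22.9 FPKM, 7.67% of the ESC value, which gives the smallest drop (13.0-fold) of the 6 down-regulated genes. Pou5f1 was 2.79 times as high as Zfp42 in ESCs and 1.62 times in NCs. The pseudogene Zfp42-ps1 shares 9.17% of the 50-base words of the longest Zfp42 transcript, the largest share among the 8 genes.

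Tcl1 (ENSMUSG00000041359, chr12:105216750-105222793, minus strand) had the largest drop. Its level went from 50.3 FPKM in ESCs, above Sall4 and Tfcp2l1, to 1.05 FPKM in NCs, below every one of the 8 genes but Prdm14. This was a 47.8-fold difference (log2 ratio -5.58, or -4.64 with a pseudocount of 1 FPKM), 2.09% of the ESC value remained, and 48 of all genes had a lower ratio. The low NC values of Tcl1 and Prdm14 lay above the floor that a few fragments set. From the lowest values in the table, 1 fragment in 1 kb of transcript was worth about 0.0136 FPKM in NCs, with a smaller step near 0.00715 FPKM. More low NC values lay at the smaller step (148) than at the larger one (119), so fragment counts depend on the step taken. On the larger step Prdm14 rested on about 38 fragments and Tcl1 on about 92. On that step a floor of 3 fragments would be 0.0173 FPKM for Prdm14 and 0.0342 FPKM for Tcl1, and it covers counting error only.

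FPKM is per length, so the levels can be set side by side within a condition. In ESCs the order from the highest was Pou5f1, Zfp42, Nanog, Tcl1, Sall4, Tfcp2l1, Tbx3 and Prdm14. In NCs it was Pou5f1, Sall4, Zfp42, Nanog, Tbx3, Tfcp2l1, Tcl1 and Prdm14. Pou5f1 and Prdm14 kept the ends of the order, Sall4 and Tbx3 moved up, and Tcl1 moved down to the place just above Prdm14. The 8 genes summed to 1490 FPKM in ESCs against 117 in NCs, a 12.8-fold difference. Pou5f1 made up 55.8% of the sum in ESCs and 31.8% in NCs, whereas Sall4 made up 2.68% and 29.5%.

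**Figure D2:**
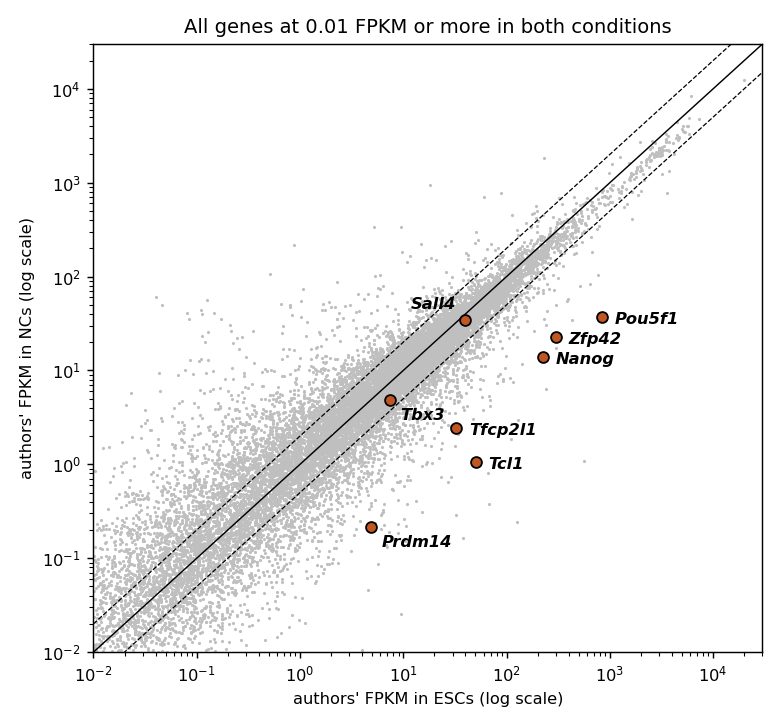
Each grey point is a gene, with the authors' FPKM in ESCs on the horizontal and in NCs on the vertical log axis; the solid line marks equal values and the dashed lines 2-fold. The marked genes Pou5f1, Zfp42, Nanog, Tfcp2l1, Tcl1 and Prdm14 lie well under the lower dashed line, and Sall4 (39.9 and 34.5 FPKM) and Tbx3 (7.37 and 4.81 FPKM) lie between the dashed lines.

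The relatives of each gene were read to see whether a family moved together, and in most families the member of the pluripotency set and its relatives had unlike ratios. Among the POU genes, Pou5f1 was far above the others in ESCs, where the next was Pou3f1 at 12.7 FPKM. Of 14 relatives 7 reached 1 FPKM, with 2 at least 2-fold lower (Pou3f1, 2.11 FPKM in NCs, and Pou2f3) and 3 higher (Pou3f3, Pou3f4 and Pou4f1, the last at 2.70 FPKM). Pou3f3 and Pou3f4 are neural POU genes, and neither passed 1.16 FPKM in NCs. The 3 higher genes were below 1 FPKM in ESCs and reached the minimum through NCs alone, and Pou2f3 reached it through ESCs alone. The widely expressed octamer factor Pou2f1 stood at 10.6 FPKM in ESCs against 10.9 in NCs, so Pou5f1 exceeded it in both conditions.

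Sall1, which shares the NuRD-binding motif of Sall4, was like it at 45.8 FPKM in ESCs against 44.3 in NCs. The other SALL genes were higher in NCs, Sall2 with 7.70 FPKM in ESCs against 21.1 in NCs and Sall3 with 0.420 and 1.80 FPKM. No SALL gene was past 2-fold lower. For Tfcp2l1, the close relatives Tfcp2 (6.81 FPKM in ESCs, 10.5 FPKM in NCs) and Ubp1 (34.0 and 30.1 FPKM) were within 2-fold, and the more distant grainyhead genes Grhl1, Grhl2 and Grhl3 were 3 of 3 lower. The last of these, an epithelial factor, was at 8.65 FPKM in ESCs against 0.649 in NCs, with a log2 ratio of -3.74 like that of Tfcp2l1.

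Of 16 T-box relatives of Tbx3 only 4 reached 1 FPKM. Tbx2, the closest of them, was 0.133 FPKM in ESCs against 2.56 in NCs, and Tbx20 was lower in NCs (1.32 and 0.260 FPKM). Tbx3 was above Tbx2 in both conditions, but by a much smaller margin in NCs. Among the PRDM relatives compared, 11 rows reached 1 FPKM, of which 1 was at least 2-fold lower and 6 higher. The lower one was Prdm1 (3.98 and 1.74 FPKM), which was within 2-fold with equal sums, and among the higher ones were the neural genes Prdm12 and Prdm13, at 1.02 and 1.55 FPKM in NCs. Each of the 6 higher rows was below 1 FPKM in ESCs. They reached the minimum through NCs alone, which favours a call as higher. Prdm14 was above Prdm1 in ESCs and below each of these 11 rows in NCs.

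The genes most like Zfp42 in sequence did not follow it. Yy1, a widely used zinc finger factor, was at 44.9 FPKM in ESCs against 52.9 in NCs, and Yy2 at 4.28 and 3.97 FPKM. Of the TCL1 family Mtcp1 alone reached 1 FPKM (7.08 FPKM in ESCs against 6.09 in NCs), and the Tcl1b genes, named here after their values were seen, were at or below 0.0346 FPKM in either condition. Tcl1 had the highest level of its family in ESCs and lay below Mtcp1 in NCs.

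**Figure D3:**
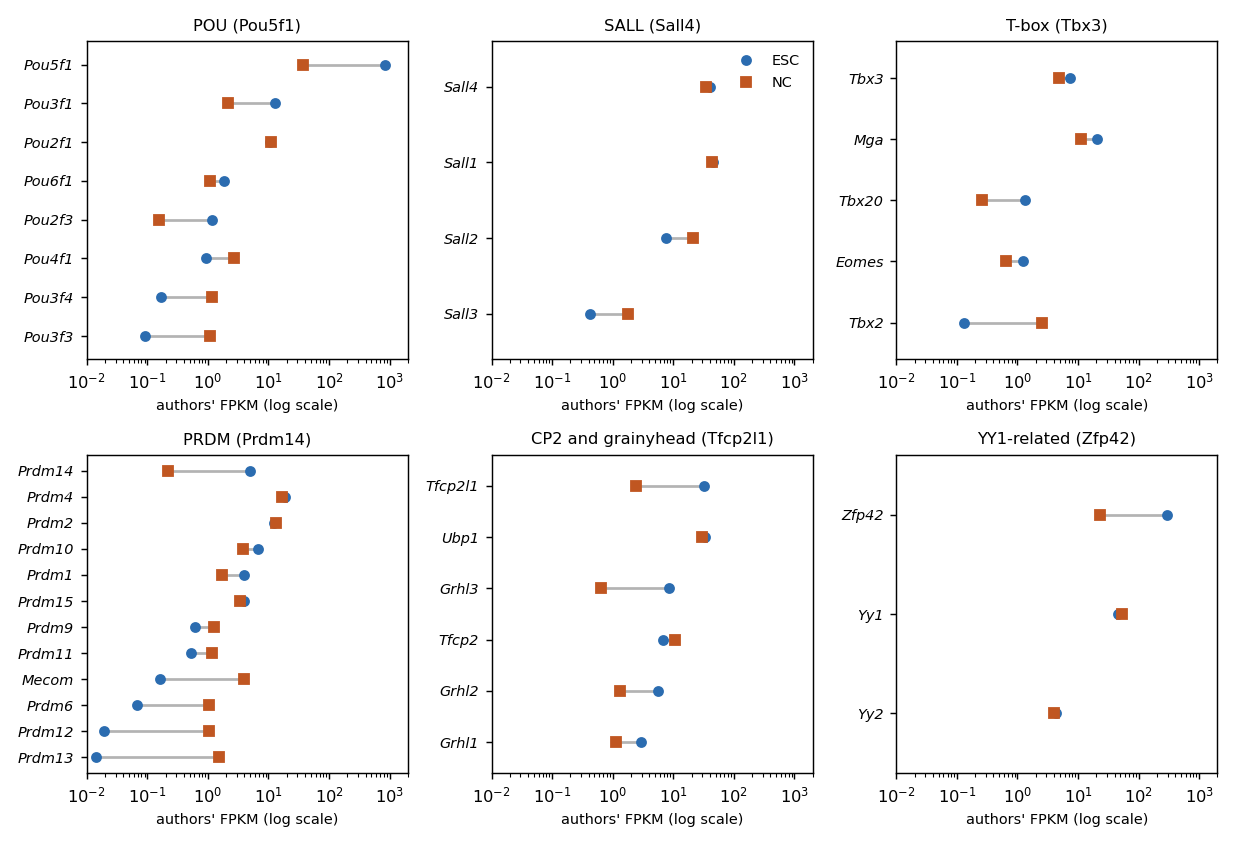
The authors' FPKM (log axis) of 6 of the pluripotency genes, at the top of each panel, and of the relatives compared with at least 1 FPKM in at least 1 condition, with circles for ESCs and squares for NCs joined by a line. Pou5f1, Prdm14, Tfcp2l1 and Zfp42 have long lines to the left, while Yy1, Yy2, Pou2f1, Sall1 and Ubp1 have short ones and Tbx2, Prdm12 and Prdm13 lie further right in NCs.

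The 8 genes were then set beside the rest of the pluripotency network. Of 20 other naive pluripotency genes 17 were at least 2-fold lower in NCs, 1 was higher and 2 were within 2-fold, with a median log2 ratio of -2.67. Sox2, the DNA-binding partner of OCT4, went from 258 FPKM in ESCs to 74.1 FPKM in NCs, so it was below Pou5f1 in ESCs and above it in NCs. The orphan receptor gene Esrrb (128 and 2.94 FPKM) and Nr0b1 (26.9 and 0.646 FPKM), which encodes a corepressor that binds OCT4, had larger drops than Pou5f1. Tdgf1, a Nodal coreceptor gene, had the lowest ratio of the list at 564 FPKM in ESCs against 1.10 in NCs. The exceptions in this list were Lin28a (122 and 164 FPKM), an RNA-binding protein gene, Dppa2 (27.3 and 29.0 FPKM) and Gbx2 (8.90 and 31.2 FPKM), a homeobox gene used also in the hindbrain boundary.

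Genes of the later, formative and primed pluripotent states were not higher in NCs as a group. Of 11 such genes 7 were at least 2-fold lower, among them Otx2 (37.8 and 0.166 FPKM), Dnmt3b (105 and 22.1 FPKM) and Fgf5 (3.89 and 0.561 FPKM), and the list's median log2 ratio was -2.22. The higher ones were Sox3 (4.37 and 21.9 FPKM) and Sall2, which are also neural genes. The LIF pathway, which feeds Tfcp2l1 and Tbx3, had 4 of 8 genes lower, led by the feedback inhibitor gene Socs3 (82.1 and 8.67 FPKM) and with the receptor gene Lifr at 10.0 and 4.13 FPKM. Jak2 was higher (4.50 and 11.3 FPKM). With equal sums 2 of the 8 genes were at least 2-fold lower.

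Among 12 repressors of the naive network 1 was lower, 2 were higher and 9 were within 2-fold, with a median log2 ratio of 0.02. These counts are near the shares of all genes, 10.6% lower and 12.5% higher. The orphan receptor genes Nr2f1 (0.112 and 23.3 FPKM) and Nr2f2 (0.106 and 12.6 FPKM) went from near absence to levels in the range of Zfp42 and Nanog in NCs. Nr6a1, whose product GCNF represses Pou5f1 and Nanog, was at 23.6 FPKM in ESCs against 40.1 in NCs, a log2 ratio of 0.77 that is within 2-fold as deposited. It was below Pou5f1 in ESCs and above it in NCs. Etv5, an ETS gene that acts with Rbpj in the exit from the naive state, was lower (116 and 7.57 FPKM). With equal sums 4 of the 12 were at least 2-fold higher.

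Most protein partners of the 8 gene products had similar levels in both conditions, as did most genes of the table. Of all genes 10.6% were at least 2-fold lower in NCs and 12.5% at least 2-fold higher. Of 20 partners 17 were within 2-fold, 2 were lower and 1 was higher, and the median log2 ratio was -0.05, which turned to 0.05 with upper quartile scaling and 0.24 with equal sums. The compared subunits of NuRD, which SALL4 binds, stayed within 2-fold at unlike levels. Hdac1 (139 and 170 FPKM), Chd4 (96.3 and 106 FPKM) and Rbbp4 (124 and 119 FPKM) were among the higher ones, and Gatad2b (18.7 and 16.3 FPKM) was the lowest. The corepressor Cbfa2t2, which holds PRDM14 and OCT4 on DNA, went from 21.0 to 9.40 FPKM, and the Polycomb subunit Suz12 from 107 to 50.1 FPKM, but with equal sums neither was past 2-fold. Akt1, whose kinase TCL1 binds, was at 29.5 FPKM in ESCs against 60.6 in NCs, opposite in direction to Tcl1.

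**Figure D4:**
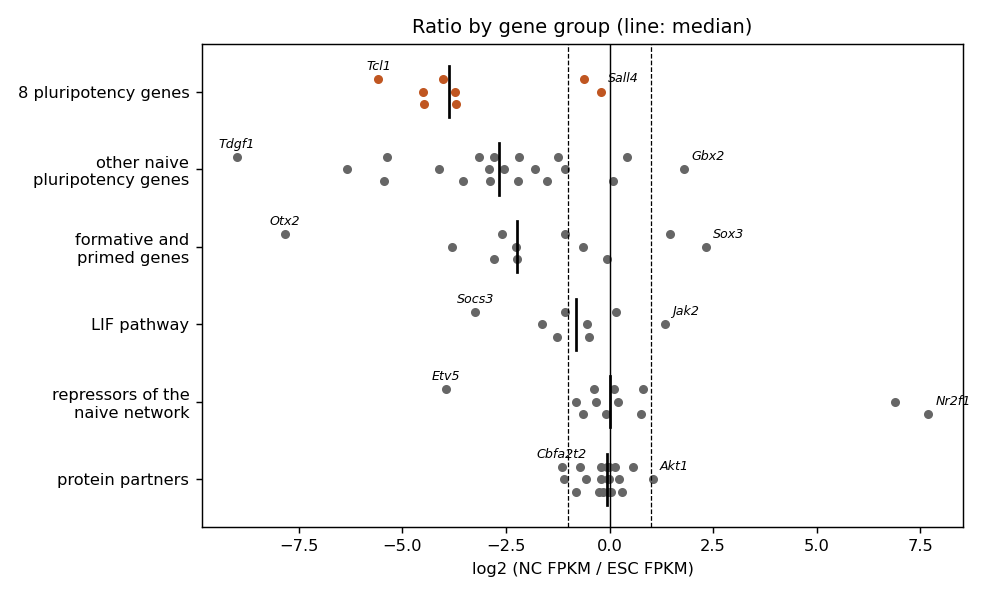
Points give the log2 ratio of NC to ESC FPKM of each gene with at least 1 FPKM in at least 1 condition, by gene group, with a bar at the median, dashed lines at 2-fold and the lowest and highest gene named. The medians run from -3.88 for the 8 pluripotency genes and -2.67 for other naive genes to 0.02 for repressors and -0.05 for protein partners.

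The gene nearest to each of the 8 was found by the Euclidean distance of log2(FPKM + 1) over the 2 conditions, which uses 2 values a gene and thus says only that the levels were alike. Utf1, itself a chromatin factor of pluripotent cells, was nearest to both Nanog (distance 0.52) and Zfp42 (0.39), with 301 FPKM in ESCs against 17.3 in NCs. Fgf4, a classical joint target of OCT4 and SOX2, was nearest to Tcl1 (0.42), with 65.7 and 0.818 FPKM. Pou5f1 had no close neighbour, the nearest being Chchd10 at a distance of 0.97 (427 and 34.8 FPKM). Tfcp2l1 lay next to Gtsf1l (0.10) and Prdm14 next to 2410021H03Rik (0.10). Tbx3 and Sall4, in the dense middle of the table, lay next to Amacr and Kpna3, each at 0.01.

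Marker genes were read to see which cells the 2 conditions held. Of the genes that RA induces directly, 6 of the 6 compared with at least 1 FPKM were higher in NCs (Cyp26a1, 0.874 and 215 FPKM, Rarb and others), and the 7 compared summed to 27.4 FPKM in ESCs against 1636 in NCs. Neural progenitor genes were higher in 7 of 9 (summed 46.3 and 210.0 FPKM), such as Pax6 (3.64 and 65.2 FPKM) and Sox1 (1.77 and 21.8 FPKM). Neuron genes as a list were not: of the 6 compared with at least 1 FPKM, 3 were at least 2-fold lower and 0 higher. Tubb3 was at 33.4 FPKM in ESCs against 7.54 in NCs, and the list sums were 49.5 and 14.5 FPKM. Elavl3, Elavl4 and Rbfox3 of these 6 reached the minimum through ESCs alone, which favours a call as lower. Below it in both conditions, Dcx went from 0.0140 to 0.334 FPKM and Syt1 from 0.444 to 0.381 FPKM. Among the genes called higher, Cyp26a1, Rarb, Hoxb1, Zfp521, Hes5 and Pax3 were below 1 FPKM in ESCs. They reached the minimum through NCs alone, which favours a call as higher. The name NC is that of the study, and at this time more progenitor markers than neuron markers were higher in NCs.

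Markers of other cell types were also read, and in the primitive endoderm, trophectoderm and fibroblast lists more were higher than lower in NCs. The germ cell list had as many higher as lower. Beside the marker counts here and above, 12.5% of all genes were at least 2-fold higher in NCs and 10.6% at least 2-fold lower. Primitive endoderm genes were higher in 7 of 11 and lower in 1 (sums 99.7 and 162 FPKM), with Gata4 at 3.30 and 3.69 FPKM and Gata6 at 2.37 and 5.48 FPKM. Trophectoderm genes were higher in 4 of 6 (87.0 and 184 FPKM), mostly through the keratins Krt8 and Krt18. Of the fibroblast genes 4 of 5 were higher and 1 lower (20.2 and 44.2 FPKM), of the germ cell genes 1 of 5 was higher and 1 lower (69.0 and 48.1 FPKM), and of the primitive streak and mesoderm genes the 1 that reached 1 FPKM, Eomes, was within 2-fold (list sums 4.41 and 3.56 FPKM). Some of those counted as higher, such as Foxa2, Gata3 and Dcn, reached the minimum of 1 FPKM through NCs alone. None of the markers of these other cell types was listed at 0 in either condition. Their part in the levels of Pou5f1, Nanog and the other 6 genes was not tested.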

How the data were processed

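RNA from 3 ESC and 3 NC samples of E14Tg2a was sequenced from TruSeq libraries. Per the submitters' processing notes, the authors used TopHat2 2.0.8, Bowtie2 2.1.0, Cufflinks 2.0.2 and Cuffdiff (version not given in the sources used here) with mm10. The deposited FPKM were used, which Cuffdiff had estimated over the 3 samples of a condition, giving 1 value a gene. The NC column is headed FPK and was read as FPKM. The authors' own fold changes, test statistics, p-values and q-values stand beside them and were not used. Depth per sample is unknown.

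The ratio of NC to ESC FPKM was computed without a pseudocount, over the 13293 genes with at least 1 FPKM in at least 1 condition, and a gene counted as higher or lower past 2-fold. A gene that reached this minimum in 1 condition only was more likely to be called as higher in that condition. Rows that share a name were kept apart. An FPKM of 0 can be a failed estimate: Eef1a1 is listed at 0 in both conditions, and 74 of the genes compared are listed at 0 in 1. The value of 1 fragment was read from the lowest FPKM with a fragment length of 200, a step chosen after the data were seen, and fragments were counted over the longest annotated transcript. Positions and 50-base words came from GENCODE M21 (GRCm38, which is mm10). Promoter bases within the GENCODE span of a gene were not printed.

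Named were the 8 genes, genes of each list with at least 1 FPKM in at least 1 condition (first those with the extreme ratios and the highest level), and the nearest gene to each of the 8. The Tcl1b genes, Dcx and Syt1 were named although below that minimum. The genes and lists were chosen with earlier results of these data known, and 2 list genes are not reported here. The calls past 2-fold were tested on simulated data with planted changes, as a check of the code alone. Python 3.11.15, numpy 2.4.6, pandas 2.3.3 and matplotlib 3.10.9 were used.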

Additional observations from a re-analysis of the deposited data

How the results depend on the processing

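Of the 8 genes, 6 were at least 2-fold lower under every scaling and pseudocount tried, and 7 (with Tbx3) at a limit of 1.5-fold. Filters on low values were tried only for the shares of all genes, and Prdm14 would not pass a minimum of 1 FPKM in both conditions. In 39 of 40 alternatives for single genes the ratio kept its direction and its side of 2-fold, and the exception was Sall4 with equal sums (0.08). The share of all genes that were lower was 19.4% at a limit of 1.5-fold and 3.67% at 4-fold. The share that were higher was 20.6% at 1.5-fold, 5.11% at 4-fold, 8.08% with a pseudocount of 1 FPKM and 7.45% among genes with at least 1 FPKM in both conditions. Of 228 alternatives for gene lists, 196 were scored as unchanged. For a median this meant the same direction and side of 2-fold, and for a count a change of at most 1.5-fold. With a pseudocount of 1 FPKM, 2 rather than 6 PRDM genes and 0 rather than 3 POU genes were higher, and the 1 TCL1 relative, Mtcp1, turned to 0.08 with equal sums. The nearest gene was the same for 8 of 8 genes at a pseudocount of 0.1 FPKM. No paired analysis was possible because the table holds no value of a single replicate, and for the same reason no replicate could be left out. Depth per sample is unknown. The differences of Sall4 and Tbx3 were not set against a spread between samples here, since the authors' own test columns were not used.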
